A study of Mus musculus with 6 samples.

Results

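The 9 genes described here carry the insulin signal of the liver cell from the receptor to the FOXO transcription factors. They are the insulin receptor Insr, the receptor substrates Irs1 and Irs2, the lipid kinase subunit Pik3r1, the kinases Akt1 and Akt2, and the transcription factors Foxo1, Foxo3 and Foxo4. They were taken by gene symbol from a table of 22564 mouse protein-coding genes, and all are described whatever their result. The 9 were chosen with earlier results of these data known. Each symbol stood on a single line of that table, and all 9 genes had enough counts to be tested.

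The samples were livers of C57BL/6J mice, an inbred laboratory strain. All were males at 10 weeks of age. Food had been withdrawn for 16 h in one state (fasted, 3 libraries), and the mice of the other ate freely (fed, 3 libraries). The comparison asks how liver RNA differs between these feeding states. The labels name no genetic change, drug or diet, and they do not tie a library to an animal, so p-values weigh a difference against a spread among libraries that may be technical in part.

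Insulin binds its receptor, a tyrosine kinase at the cell surface, which phosphorylates the docking proteins IRS1 and IRS2. These recruit phosphoinositide 3-kinase, whose lipid product switches on the AKT kinases, and AKT phosphorylates the FOXO factors, which then leave the nucleus. In the fasted liver insulin is low, FOXO factors stay in the nucleus and are known to raise genes of glucose production, and Irs2 is known as a gene that FOXO and glucagon signalling can raise. Phosphorylation and location of the proteins were not measured, and all values below are levels of RNA.

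The IRS promoters and that of Akt1 are shown because, among the members found in the promoter table, they held at least 1 of the 4 motifs searched that insulin or fasting signals are known to act through. The table is from RefSeq on GRCm38.p6, runs from 250 bases before to 50 bases after a transcript start, and held 12 windows of 7 members. Insr and Foxo4 had none. Capitals mark the motifs: GTAAACA (FOXO site), CAAAACA (core of the insulin response sequence), TGACGTCA (cAMP response element) and CACGTG (E-box), read on both strands, so that TGTTTAC is the FOXO site and TGTTTTG the insulin response core of the other strand. The stretches, each written on the strand of its gene, are chr1:82291445-82291574 (minus strand) for Irs1, chr8:11008940-11008993 (minus strand) for Irs2 and chr12:112675019-112675065 (minus strand) for Akt1.
Irs1: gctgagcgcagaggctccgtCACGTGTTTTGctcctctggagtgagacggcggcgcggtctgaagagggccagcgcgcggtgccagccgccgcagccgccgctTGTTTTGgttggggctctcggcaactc
Irs2: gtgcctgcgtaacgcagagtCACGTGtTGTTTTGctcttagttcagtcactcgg
Akt1: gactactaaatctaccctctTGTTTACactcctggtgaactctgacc
In both IRS promoters an E-box stood next to an insulin response core. Their first bases lay 4 bases apart in Irs1, where the motifs share bases, and 7 bases apart in Irs2. Such a pair, with starts within 10 bases, was found in 9 of 32851 promoter windows (0.0274%), which belonged to 8 genes, and the spacing was set after the IRS promoters had been seen. Taken singly, the E-box was in 7.15% of all windows, the insulin response core in 6.28%, the FOXO site in 3.65% and the cAMP response element in 1.79%. A match describes letters in a window and shows no binding.

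None of the 9 transcripts passed the test between feeding states. By edgeR's quasi-likelihood test with Benjamini-Hochberg adjustment over all 11633 genes tested, 0 of 9 had an adjusted p under 0.05, where 2.52% of all tested genes did (1.41% higher and 1.11% lower in fasted livers). DESeq2 likewise called 0 of 9, where it called 8.4% of all genes, and limma on log2(FPKM + 1) called 0 of 9, where it called 1.35%. At an unadjusted p under 0.05 edgeR gave 3 of 9 members (Akt2, Foxo1 and Foxo3), where it gave 21.8% of all genes. The fasted and the fed libraries did not overlap for 2 of 9 members, Foxo3 higher and Akt2 lower in fasted livers. Over all tested genes 29% did not overlap, 15.3% of them higher and 13.7% lower, all as shares of the genes tested. The median log2 fold change, fasted over fed, was -0.07 over the members and -0.02 over all tested genes, and the median size without sign was 0.35 and 0.30.

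**Figure D1:**
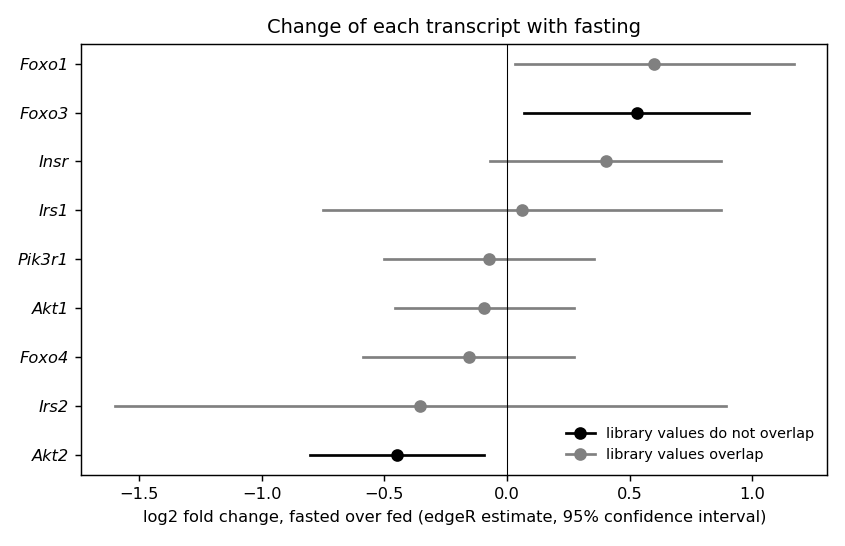
The log2 fold change of each gene, fasted over fed, is plotted as edgeR's estimate (point) with its 95% confidence interval (line), from 3 libraries per group. Estimates run from 0.60 for Foxo1 to -0.45 for Akt2, Irs2 has the widest interval, and black marks Foxo3 and Akt2, whose fasted and fed libraries do not overlap.

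The libraries themselves differed in ways that touch these values. Counts over the listed genes summed to between 11158005 and 11639390 in fasted libraries and between 12289651 and 14771827 in fed libraries, so that 3 counts, the smallest amount treated as above 0, are worth 0.186 to 0.291 CPM, counts set against the scaled library total. The fed libraries lay further from each other by the chi-square statistic of a library pair, divided by its degrees of freedom. It was 16.9 to 56.0 for fasted pairs and 148 to 419 for fed pairs. Abundant genes weigh most in this statistic. Over all tested genes the median SD of log2 CPM was 0.21 in fasted and 0.27 in fed libraries. Acute phase genes, which the liver raises in inflammation, summed to 59812, 60064 and 24576 CPM in fasted libraries 1 to 3 and to 11756, 81248 and 136115 CPM in fed libraries 1 to 3, with none of the 10 genes at 0. Hepatocyte markers were abundant in every library (82780 to 97798 CPM fasted, 15941 to 65914 CPM fed), although Alb is listed at 0 in fed library 2. Their sum was lower in every fed than in every fasted library. Of the 6 markers, all tested, edgeR called 1, where it called 2.52% of all tested genes. Apoa1, Cyp2e1 and Tat were lower in every fed than in every fasted library, while Alb, Ttr and Serpina1a overlapped. Summed markers ran, fasted against fed, over 343 to 518 and 354 to 485 CPM for Kupffer cells, 168 to 221 and 175 to 255 CPM for endothelial cells, and 181 to 262 and 181 to 219 CPM for stellate cells. The 4 cholangiocyte markers summed to 12.5 to 27.3 CPM in fasted and 32.9 to 503 CPM in fed libraries, nearly all from Spp1, while Krt7 and Krt19 were at 0 in some libraries. Summed lymphocyte markers reached at most 1.99 CPM and summed adipocyte markers at most 3.23 CPM, with Plin1 and Lep at 0 in all 6. The Kupffer, endothelial, stellate and cholangiocyte lists held 5, 6, 6 and 1 tested genes, and no lymphocyte or adipocyte marker had enough counts for a test. Of the stellate markers, Des and Col1a1, named after their values were seen, were at 32.6 and 24.4 CPM in fasted library 1. In every other library they were at most at 3.54 and 7.71 CPM. The other stellate markers held no such gap. The part of these marker lists in the members' values was not tested. In whole liver, fewer cells of a type and less RNA per cell cannot be told apart.

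The receptor came first in the chain. Insr (ENSMUSG00000005534, chr8:3122061-3279617, minus strand, in the GENCODE M21 annotation of GRCm38) was at 136, 154 and 172 CPM in fasted libraries 1 to 3, against 93.1, 113 and 143 CPM in fed libraries 1 to 3. Fed library 3 lay inside the fasted range, and the other two fed libraries lay below it. The mean was 154 ± 18.1 CPM in fasted and 117 ± 25.4 CPM in fed livers (SD, n = 3 each). Its log2 fold change was 0.40 (SE 0.20, 95% interval -0.07 to 0.87, adjusted p = 0.296 by edgeR). A difference of Insr between the states was therefore not shown at this depth and spread. The related receptor Igf1r, for insulin-like growth factor, was at 0.552 ± 0.107 CPM in fasted and 0.422 ± 0.217 CPM in fed livers (SD, n = 3 each) and did not reach the minimum for a test.

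The receptor substrates were the scarcest of the 9 and varied most from library to library. Irs1 (ENSMUSG00000055980, chr1:82233101-82291416, minus strand) was at 9.91, 18.0 and 19.6 CPM in fasted libraries 1 to 3, against 19.5, 17.1 and 8.98 CPM in fed libraries 1 to 3. Each state held a single library below 10 CPM and a pair at 17.1 CPM or more, and the ranges overlapped almost fully. The log2 fold change was 0.06 (SE 0.35, 95% interval -0.75 to 0.87, adjusted p = 0.939 by edgeR), and its sign turned in 7 of 15 other settings.

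Irs2 (ENSMUSG00000038894, chr8:10984681-11008458, minus strand) was at 10.4, 14.8 and 6.49 CPM in fasted libraries 1 to 3, against 6.77, 8.58 and 25.4 CPM in fed libraries 1 to 3. A single fed library, number 3, stood 3.30-fold above the mean of the other two fed libraries, and the fasted range spanned both of those. These values rest on 107, 162 and 75 counts in the fasted and 96, 138 and 302 counts in the fed libraries. The log2 fold change was -0.35 (SE 0.53, 95% interval -1.6 to 0.89, adjusted p = 0.735 by edgeR). Without fed library 3 it turned to 0.46, with an adjusted p of 0.454. For a gene known to be raised in the fasted liver, neither direction was shown here, and the interval spans a fold of 0.33 to 1.85, fasted over fed.

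Fed library 3 combined the highest Irs2 with the lowest Irs1 of all 6 libraries. Its Irs1 was at 0.491 times the mean of the other two fed libraries. It also held the highest acute phase sum and the highest Socs3, a feedback inhibitor of receptor signalling that cytokines raise. Socs3, singled out after its values were seen, was at 70.3, 26.4 and 16.2 CPM in fasted libraries 1 to 3 and at 16.2, 45.3 and 188 CPM in fed libraries 1 to 3. The part of these signs in the IRS values was not tested.

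The balance of the substrates was measured as the ratio of their FPKM, counts scaled by transcript length and library size. Irs2 over Irs1 was 2.44, 1.92 and 0.770 in fasted libraries 1 to 3, against 0.810, 1.17 and 6.58 in fed libraries 1 to 3. Irs2 was the more abundant transcript in 2 of 3 libraries of each state, so no order of the substrates held across either. The mean log2 ratio differed by -0.26 between fasted and fed livers (exact two-sided permutation test, p = 0.8, adjusted p = 1 over the 5 paralog pairs compared). With 3 against 3 libraries this test cannot go below 0.1.

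**Figure D2:**
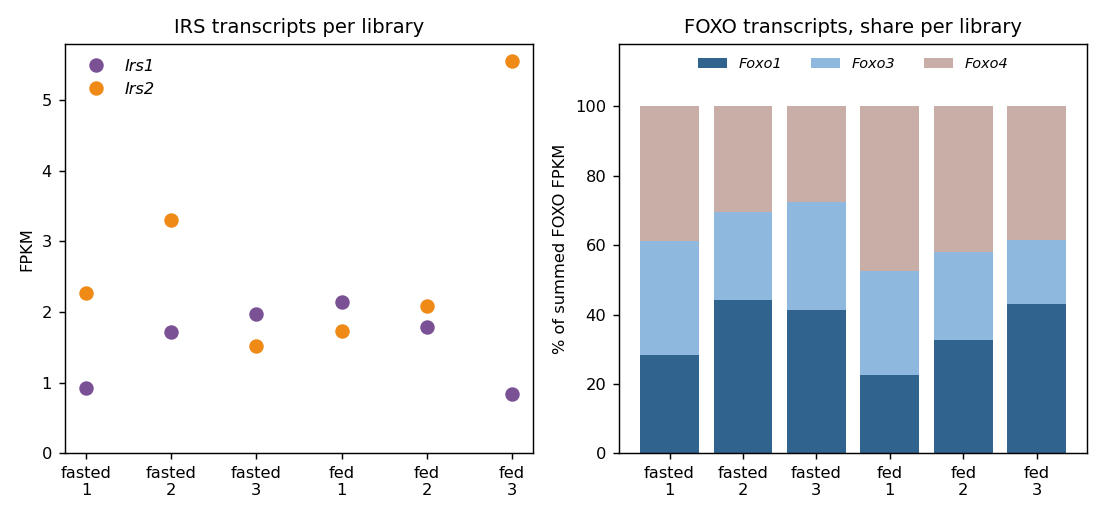
The left panel plots the FPKM of Irs1 and Irs2 in each library, and the right panel the share of each FOXO transcript in their summed FPKM, fasted libraries first. Irs2 reaches 5.56 FPKM in fed library 3, where Irs1 is at 0.845 FPKM, and Foxo4 takes 27.6% to 38.7% of the FOXO sum in fasted and 38.4% to 47.4% in fed libraries.

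Pik3r1 (ENSMUSG00000041417, chr13:101680563-101768217, minus strand), the p85 alpha regulatory subunit that ties phosphoinositide 3-kinase to the IRS proteins, was at 52.9, 67.9 and 55.5 CPM in fasted libraries 1 to 3, against 73.2, 61.8 and 50.3 CPM in fed libraries 1 to 3. The fasted values lay within the fed range. Fasted over fed, the log2 fold change was -0.07 (SE 0.18, 95% interval -0.50 to 0.36, adjusted p = 0.851 by edgeR).

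The AKT kinases were the most abundant of the 9 per length, and they differed in how they stood between the states. Akt1 (ENSMUSG00000001729, chr12:112653821-112674884, minus strand), the widely expressed form, was at 66.8, 62.0 and 50.8 CPM in fasted libraries 1 to 3, against 57.6, 69.4 and 64.6 CPM in fed libraries 1 to 3. These ranges overlapped, with a log2 fold change of -0.09 (SE 0.16, 95% interval -0.46 to 0.27, adjusted p = 0.764 by edgeR).

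Akt2 (ENSMUSG00000004056, chr7:27591552-27640826, plus strand), the form best known for the metabolic actions of insulin, was at 76.3, 58.5 and 68.7 CPM in fasted libraries 1 to 3, against 86.1, 94.5 and 97.1 CPM in fed libraries 1 to 3. Every fasted library lay below every fed library. The means were 67.8 ± 8.90 CPM in fasted and 92.6 ± 5.74 CPM in fed livers (SD, n = 3 each), a log2 fold change of -0.45 (SE 0.15, 95% interval -0.80 to -0.09). This was the lowest p of the 9 (0.0198 before and 0.152 after adjustment, edgeR), and it did not pass the threshold. In the 15 other settings the log2 fold change stayed between -0.54 and -0.35, and the lowest adjusted p was 0.105, with DESeq2.

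Akt1 over Akt2 in FPKM was 0.971, 1.15 and 0.899 in fasted libraries 1 to 3, against 0.760, 0.776 and 0.730 in fed libraries 1 to 3. By this measure the kinases were close to equal in fasted livers, while Akt2 exceeded Akt1 in each fed library, and the groups did not overlap. The mean log2 ratio was 0.41 higher in fasted livers. An exact two-sided permutation test gave p = 0.1, the smallest that this design allows (adjusted p = 0.25 over the 5 pairs). In CPM the ratio was 0.876, 1.06 and 0.739 in fasted libraries 1 to 3, against 0.669, 0.734 and 0.665 in fed libraries 1 to 3. There fasted library 3 lay only just above fed library 2.

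Among genes outside the lists, the library pattern nearest to that of Akt2 was that of Uba1, which starts the ubiquitin pathway, and then that of Tma7. Their log2 CPM, centred on the mean of the 6 libraries, lay at a root mean square difference of 0.05 from Akt2 in both cases, where the median over 7533 genes was 0.37. Uba1 was at 106, 85.8 and 95.3 CPM in fasted libraries 1 to 3 and at 121, 125 and 129 CPM in fed libraries 1 to 3, and did not pass the test (adjusted p = 0.185 by edgeR). Tma7 was at 23.1, 17.1 and 20.7 CPM in fasted libraries 1 to 3 and at 25.7, 29.9 and 31.8 CPM in fed libraries 1 to 3 (adjusted p = 0.128 by edgeR). Both genes, like Akt2, held their lowest value in fasted library 2 and their highest in fed library 3. They were picked for their nearness to Akt2 over these libraries, so this adds no separate evidence.

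Of the FOXO factors, Foxo1 and Foxo3 had estimates above 0 and Foxo4 had one below. Foxo1 (ENSMUSG00000044167, chr3:52268336-52353221, plus strand), the factor best known for raising glucose production in liver, was at 29.8, 50.2 and 49.1 CPM in fasted libraries 1 to 3, against 22.9, 27.7 and 34.7 CPM in fed libraries 1 to 3. Fasted libraries 2 and 3 lay above all fed libraries, while fasted library 1 fell within the fed range. The means were 43.1 ± 11.5 CPM in fasted and 28.4 ± 5.91 CPM in fed livers (SD, n = 3 each), 1.52-fold higher by the fitted estimate. Its log2 fold change of 0.60 had the largest size of the 9 (SE 0.24, 95% interval 0.03 to 1.17), with a p of 0.0407 before and 0.209 after adjustment by edgeR.

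Foxo3 (ENSMUSG00000048756, chr10:42181841-42276755, minus strand), a close relative that shares the DNA site of FOXO1, was at 31.3, 33.1 and 33.6 CPM in fasted libraries 1 to 3, against 27.0, 24.5 and 16.3 CPM in fed libraries 1 to 3. The fasted libraries were nearly level and all lay above the fed libraries, of which number 3 was the lowest. The log2 fold change was 0.53 (SE 0.20, 95% interval 0.07 to 0.99), with a p of 0.0292 before and 0.177 after adjustment by edgeR. In FPKM the separation was not kept. Foxo3 was at 5.42, 4.62 and 6.20 FPKM in fasted libraries 1 to 3 and at 5.58, 3.77 and 2.36 FPKM in fed libraries 1 to 3. The count that 1 FPKM stood for, which depends on the transcript length used for each library, varied 1.30-fold over the libraries for Foxo3, more than for any other member.

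Foxo4 (ENSMUSG00000042903, chrX:101254528-101260873, plus strand), the X-linked member of the family, was at 20.8, 18.1 and 17.7 CPM in fasted libraries 1 to 3, against 26.0, 19.8 and 17.2 CPM in fed libraries 1 to 3. The fasted values lay inside the fed range. Its estimated log2 fold change was -0.16 (SE 0.18, 95% interval -0.59 to 0.27, adjusted p = 0.659 by edgeR).

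Set against Foxo4, the mean log2 ratio of both other factors was higher in fasted livers, with overlap between libraries for Foxo1. Foxo3 over Foxo4 in FPKM was 0.849, 0.834 and 1.12 in fasted libraries 1 to 3, against 0.633, 0.608 and 0.486 in fed libraries 1 to 3. The groups did not overlap, and the mean log2 ratio differed by 0.70 (exact two-sided permutation p = 0.1, adjusted p = 0.25 over the 5 pairs). Foxo1 over Foxo4 was 0.732, 1.45 and 1.5 in fasted libraries 1 to 3, against 0.476, 0.778 and 1.12 in fed libraries 1 to 3, a difference of 0.65 (exact permutation p = 0.3, adjusted p = 0.5). Foxo1 over Foxo3 was 0.862, 1.73 and 1.33 in fasted libraries 1 to 3, against 0.752, 1.28 and 2.30 in fed libraries 1 to 3, a difference of -0.05 (exact permutation p = 1). The summed FPKM of the 3 factors was 16.5, 18.2 and 19.96 in fasted libraries 1 to 3 and 18.6, 14.8 and 12.7 in fed libraries 1 to 3, so the states overlapped in the family as a whole. Foxo6, the remaining FOXO gene, was at 0 CPM in all fasted libraries and at most 0.084 CPM in a fed library, below the amount of 3 counts.

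**Figure D3:**
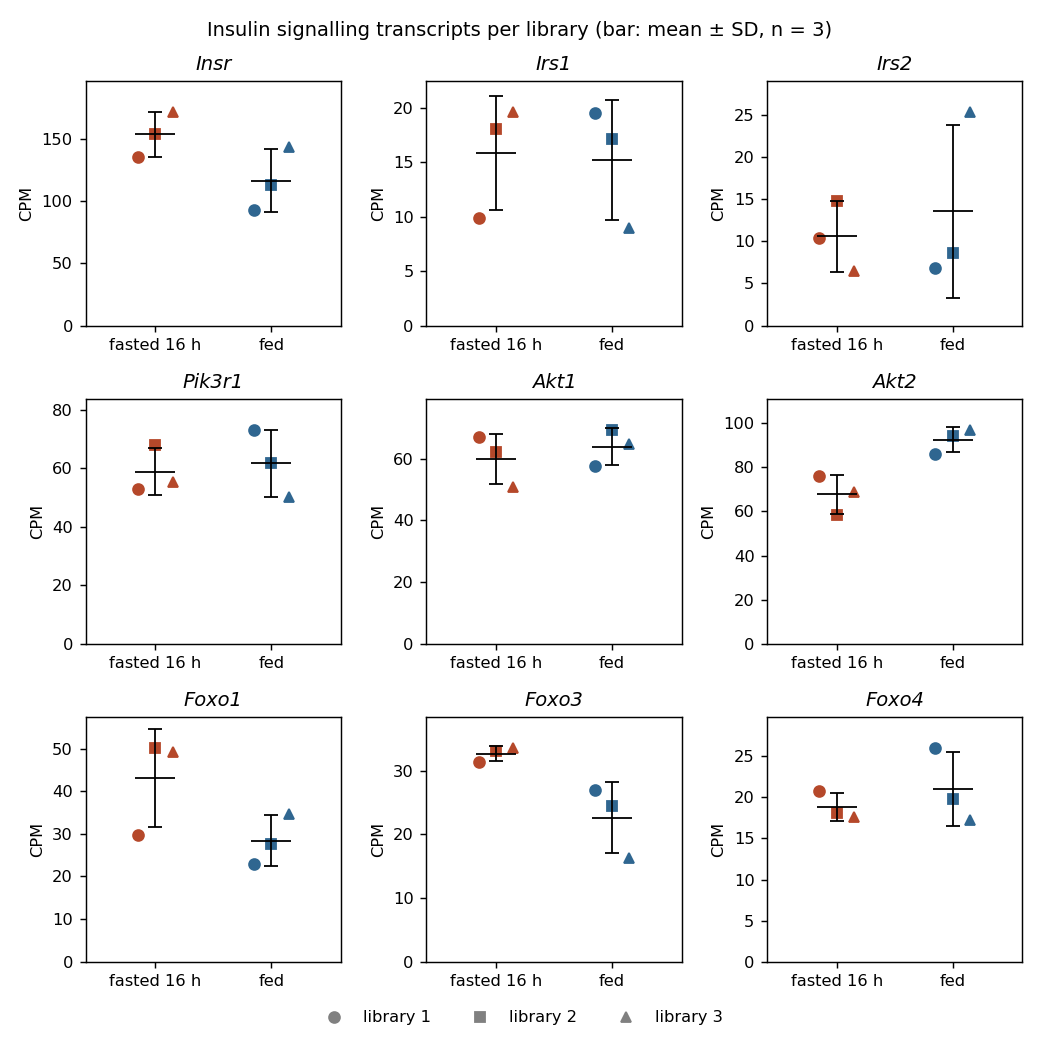
Each panel plots 1 gene in CPM on an axis that starts at 0, with 3 fasted libraries on the left, 3 fed libraries on the right, the mean as a long bar and the SD as whiskers. Akt2 is lower and Foxo3 higher in every fasted library than in every fed library, and fed library 3 (triangle) is the highest point of Irs2 and the lowest of Irs1.

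Compared per length, the order of the 9 transcripts was the same in both states except for Foxo1 and Foxo4. Fasted livers had, in mean FPKM, 21.7 ± 2.55 for Akt2, 21.6 ± 1.23 for Akt1, 14.6 ± 2.23 for Insr, 7.92 ± 1.11 for Pik3r1, 6.98 ± 2.0 for Foxo1, 5.81 ± 0.493 for Foxo4, 5.41 ± 0.787 for Foxo3, 2.37 ± 0.897 for Irs2 and 1.54 ± 0.546 for Irs1 (SD, n = 3). Fed livers had 31.5 ± 2.09 for Akt2, 23.8 ± 2.26 for Akt1, 11.6 ± 1.6 for Insr, 8.66 ± 2.14 for Pik3r1, 6.63 ± 2.01 for Foxo4, 4.82 ± 0.623 for Foxo1, 3.91 ± 1.61 for Foxo3, 3.13 ± 2.11 for Irs2 and 1.59 ± 0.668 for Irs1 (SD, n = 3). Neighbours whose libraries did not overlap were Akt1 and Insr, Insr and Pik3r1, and Foxo3 and Irs2 in fasted livers, and Akt2 and Akt1, and Akt1 and Insr, in fed livers. All other neighbours overlapped.

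The spread among libraries differed from member to member. The SD of log2 CPM was 0.59 in fasted and 1.0 in fed livers for Irs2, larger than for 90.0% and 93.9% of tested genes, and 0.53 in fasted and 0.59 in fed livers for Irs1. It was 0.19 in fasted and 0.09 in fed livers for Akt2, and 0.05 in fasted and 0.38 in fed livers for Foxo3. The median over the members was 0.19 in fasted and 0.30 in fed livers, beside 0.21 and 0.27 over all tested genes. In fed library 3, Insr and Foxo1 were also at 1.39 and 1.37 times the mean of the other two fed libraries, and Foxo3 at 0.632 times that mean.

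Leaving out any single library left 0 of 9 members called by edgeR, although the share of all genes called ran widely. It was 0.276% without fasted library 1, 0.0252% without fasted library 2 and 0.251% without fasted library 3. It was 4.21% without fed library 1, 0.111% without fed library 2 and 6.34% without fed library 3. Insr and Foxo1 came nearest to the threshold without fed library 3, with adjusted p of 0.0980 and 0.111 by edgeR, and Foxo3 without fed library 1, with 0.110.

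Other genes that carry the signal were read against the same background. The 4 gene lists from here on were chosen with earlier results of these data known. Of 27 listed carriers, among them adaptors, catalytic and regulatory kinase subunits, mTOR complex genes and GSK3 kinases, 25 were tested and 0 passed by edgeR, with 2 at an unadjusted p under 0.05, 1 called by DESeq2 and 0 by limma. Over all genes the shares were 2.52% and 21.8% by edgeR, 8.4% by DESeq2 and 1.35% by limma, and a count of 0 in a list of this size lies near that background. Their median log2 fold change was 0.10. The adaptor Shc1 was at 58.7 ± 4.21 CPM in fasted and 58.5 ± 6.65 CPM in fed livers, and the adaptor Grb2 at 43.8 ± 4.74 CPM in fasted and 47.7 ± 3.58 CPM in fed livers (SD, n = 3 each). The gene called by DESeq2, named for that call, was Pik3r3, a further regulatory subunit beside Pik3r1. Pik3r3 was at 2.23, 2.01 and 1.82 CPM in fasted libraries 1 to 3 and at 4.73, 4.29 and 3.86 CPM in fed libraries 1 to 3, with an edgeR log2 fold change of -1.09 (adjusted p = 0.0816). In CPM every fasted library held less Pik3r3 than every fed library, and another gene overlaps it on the same strand. In FPKM fasted library 2, at 0.852, lay inside the fed range of 0.641 to 0.918. Fasted libraries held 21 to 23 counts of Pik3r3 and fed libraries 46 to 69.

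Of 16 listed brakes on the signal, phosphatases, adaptors and pseudokinases, 15 were tested and 0 passed by edgeR, where 2.52% of all genes did, and 5 had an unadjusted p under 0.05, where 21.8% of all genes did. DESeq2 called 1, where it called 8.4% of all genes, and limma 0, where it called 1.35%. Their median log2 fold change was 0.10. Ceacam1, known for its part in clearing insulin, was at 148, 154 and 184 CPM in fasted libraries 1 to 3 and at 110, 105 and 136 CPM in fed libraries 1 to 3, without overlap (log2 fold change 0.47, adjusted p = 0.175 by edgeR). The gene called by DESeq2 was Trib3, a pseudokinase that binds AKT, at 6.73 ± 3.27 CPM in fasted and 2.63 ± 0.824 CPM in fed livers (log2 fold change 1.36, adjusted p = 0.127 by edgeR).

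A list of genes known to be raised by FOXO factors in various cells held calls. Of its 18 genes, all tested, 2 rose and 0 fell by edgeR, which called 2.52% of all tested genes. The estimate was above 0 for 13 and below 0 for 5, with a median log2 fold change of 0.52, beside -0.02 over all tested genes. Pck1, an enzyme that commits carbon to glucose production, was at 3645, 3649 and 4125 CPM in fasted libraries 1 to 3 and at 1480, 1759 and 1303 CPM in fed libraries 1 to 3. Pck1 was 2.51-fold higher in fasted livers (log2 fold change 1.33, SE 0.24, adjusted p = 0.0404 by edgeR). Txnip, a thioredoxin-binding protein that limits glucose uptake, was at 104, 75.8 and 87.8 CPM in fasted libraries 1 to 3 and at 44.5, 32.1 and 30.8 CPM in fed libraries 1 to 3, 2.49-fold higher in fasted livers (log2 fold change 1.32, SE 0.20, adjusted p = 0.0266 by edgeR). Both calls were lost with limma on FPKM and when fed library 2 or any fasted library was left out, each with 0 of the list called. DESeq2, which called 8.4% of all genes, called 5 of the 18, of which Gadd45a was lower in fasted livers.

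Among members of that list that did not pass, G6pc, Igfbp1 and Ppargc1a, all with estimates above 0, were chosen after their values were seen. They are well known FOXO1 targets of the liver, but do not stand for the whole list. Apoc3 and Mttp, also named after their values were seen, had log2 fold changes of 0.16 and 0.08. Their adjusted p was 0.675 and 0.847 by edgeR, and their fasted and fed libraries overlapped. G6pc, the last enzyme of glucose production, was at 303, 412 and 491 CPM in fasted libraries 1 to 3 and at 203, 234 and 52.9 CPM in fed libraries 1 to 3, without overlap (adjusted p = 0.196 by edgeR). Igfbp1, a binding protein for insulin-like growth factors, was at 250, 499 and 422 CPM in fasted libraries 1 to 3 and at 49.3, 180 and 317 CPM in fed libraries 1 to 3, where fed library 3 lay inside the fasted range (adjusted p = 0.334 by edgeR). Ppargc1a, a coactivator that works with FOXO1, was at 21.3, 21.7 and 26.5 CPM in fasted libraries 1 to 3 and at 6.77, 0.497 and 4.95 CPM in fed libraries 1 to 3, without overlap (adjusted p = 0.0955 by edgeR). Lowest among the estimates below 0 were those of Gadd45a, a stress-induced gene, at -1.80 (adjusted p = 0.0933) and Bcl6, a transcriptional repressor, at -1.23 (adjusted p = 0.256), both log2 fold changes by edgeR.

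Genes known to be raised by insulin in the fed liver, mostly of fat synthesis, had the largest differences of the 4 lists. The list was chosen with earlier results of these data known, and the part of that choice in these differences was not tested. Of 10 listed, 8 were tested, 5 fell and 0 rose by edgeR, where 1.11% of all tested genes fell and 1.41% rose, and their median log2 fold change was -2.76. Elovl6, a fatty acid elongase, was at 13.4, 12.3 and 16.1 CPM in fasted libraries 1 to 3 and at 124, 107 and 53.6 CPM in fed libraries 1 to 3. Every fasted library lay far below every fed library. Elovl6 was 6.81-fold lower in fasted livers (log2 fold change -2.77, SE 0.32, adjusted p = 0.0138), the fatty acid synthase gene Fasn 7.59-fold lower (adjusted p = 0.0247) and the acetyl-CoA carboxylase gene Acaca 2.37-fold lower (adjusted p = 0.0395), all by edgeR. Acly, which makes cytosolic acetyl-CoA and was named after its values were seen, was 2.55-fold lower (adjusted p = 0.0464 by edgeR). Limma on log2(FPKM + 1) called 2 of the list. Without fed library 3, where Pnpla3 also had enough counts for a test, edgeR called 9 of 9 tested. It called 0 without fed library 2 or any fasted library.

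**Figure D4:**
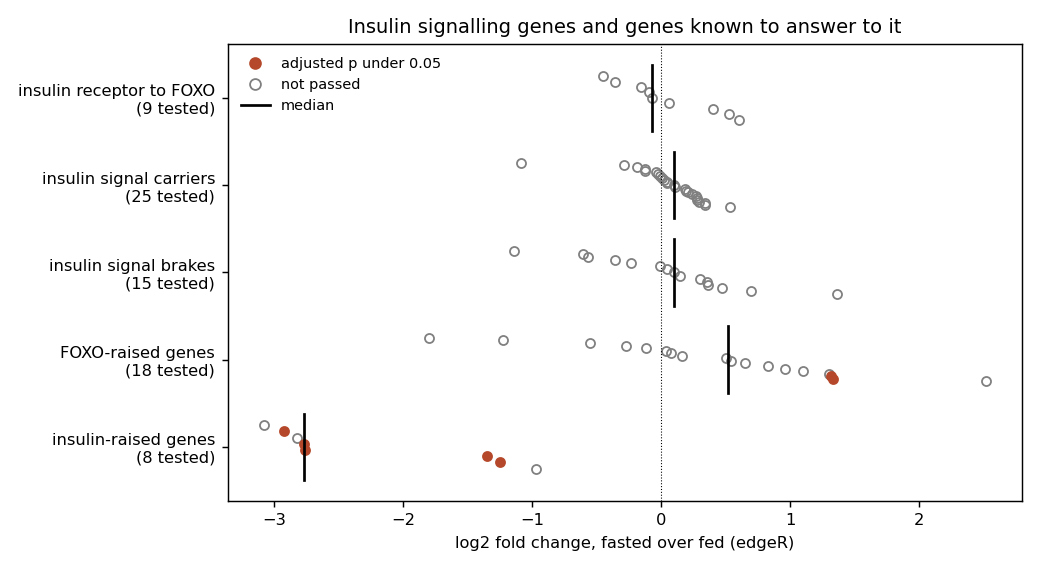
Each point is 1 tested gene, placed at its log2 fold change, fasted over fed, by edgeR, with filled points at an adjusted p under 0.05 and a vertical bar at the median of the list. The 9 genes from receptor to FOXO hold no filled point and a median of -0.07, while the insulin-raised genes hold 5 filled points and a median of -2.76. The 9 genes and the lists were chosen with earlier results of these data known.

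The deposited table also marks genes with the pathways of the KEGG database, an annotation taken up after the data had been seen. Its insulin pathway (mmu04910) held 116 tested genes, 7 of the 9 members among them, of which 2 rose (Mknk2 and Pck1) and 3 fell (Acaca and Fasn among them), or 4.31%. Its FOXO pathway (mmu04068) held 108 tested genes and all 9 members, of which 3 rose (Pck1, Plk3 and Bnip3) and 2 fell (S1pr1 and Ccnd1), or 4.63%. Over all tested genes the share was 2.52%, and the difference from it was not tested. None of the called genes in either pathway was one of the 9.

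Several members share their place in the genome with another gene, and the sources used here do not say whether the counting kept the strands apart. In GENCODE M21 the protein-coding gene Gm9747 lies opposite Irs1, and the deposited table gives 2 genes the position of Irs1. The noncoding transcripts 9530052E02Rik, Gm16180 and Gm20402 lie opposite Irs2, Insr and Foxo1, Gm36638 and Gm38034 overlap Pik3r1 and Foxo1 on the same strand, and Mir6939 lies within Akt1. Counts of these members are uncertain to that extent. Akt2, Foxo3 and Foxo4 overlap no other gene of that annotation. Among the other genes with values here, Elovl6, Txnip, Ceacam1, Acaca, Ppargc1a, Mttp, Gadd45a, Bcl6 and Tma7 have a gene on the opposite strand. Grb2, Pik3r3, Acaca, Acly, Elovl6 and Ppargc1a overlap one on the same strand.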

How the data were processed

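Livers of fasted and fed mice gave 3 libraries each of total RNA freed of ribosomal RNA, made with a stranded kit, per the labels' protocols. CASAVA 1.8, TopHat2 and the human build hg19 are named in the submitters' processing notes, while the table carries mouse identifiers. The counting program is not given in those notes or the labels. Per the file headers, the authors deposited an FPKM and an estimated count per gene and library.

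In each library 90.4% to 91.0% of the estimated counts above 0 were whole multiples, within 0.02, of a step between 0.840 and 1.18. Counts were divided by that step and rounded to whole numbers, and lines sharing a symbol were summed to 22481 symbols. The feeding states were compared by edgeR 4.0.16 (R 4.3.3) and its quasi-likelihood test, with TMM factors, filterByExpr at a minimum count of 10, no covariate, and Benjamini-Hochberg adjustment at 0.05. CPM use library totals scaled by TMM. Ratios of paralogs were compared in FPKM with exact permutation tests. Alternatives were DESeq2 1.42.0, limma 3.58.1 on log2(FPKM + 1) and log2(FPKM + 0.1) for genes with a mean FPKM of at least 0.5, and on all genes, no count filter, upper-quartile factors, Alb left out, counts as deposited, a replicate block, and leaving out each library. The fits were tested on simulated counts.

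The members and gene lists were chosen with earlier results of these data known. Named are all members; in each list up to 4 called genes with the lowest adjusted p or else the 2 most abundant; the 2 genes nearest to the member with the lowest adjusted p, among genes with a mean count of at least 100; and others where the text says so. Some genes that this rule selects are left out of the text. Angptl8 of the insulin-raised list was not matched by symbol. Identifiers were matched to GENCODE M21 (GRCm38; 21839 of 22564), and sequences are RefSeq's for GRCm38.p6.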

Additional observations from a re-analysis of the deposited data

How the results depend on the processing

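None of the 9 members was called in any of 15 other settings. Insr, Akt1, Akt2, Foxo1 and Foxo3 kept their direction in all 15, but on leaving out 1 library Insr went down to 0.24 (without fed library 1), Foxo3 to 0.35 (without fed library 3) and Akt1 to -0.0062 (without fasted library 3) or -0.18 (without fed library 1), and the log2 ratio of Foxo1 over Foxo4 ran from 0.32 (without fed library 1) to 0.98 (without fasted library 1). Irs1 turned to -0.0036 (log2 fold change) with upper-quartile factors and to -0.0148, -0.0109 and -0.0148 with limma on log2(FPKM + 1), on log2(FPKM + 0.1) and without filter, and ran from -0.20 to 0.31 as single libraries were left out. On leaving out single libraries Irs2 ran from -0.70 to 0.46, Pik3r1 from -0.20 to 0.0446, Foxo4 from -0.28 to 0.0035, the log2 ratio of Irs2 over Irs1 from -0.85 to 0.66 and that of Foxo1 over Foxo3 from -0.45 to 0.36; in CPM the last was 0.0177.

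Of all genes, 293 were called, against 1056 by DESeq2, 153, 142 and 40 by those 3 limma settings, and 3 (without fasted library 2) to 754 (without fed library 3) on leaving out a library. The share of higher calls was 56.0%, against 46.4%, 45.8% and 40% with limma and 46.5% with upper-quartile factors. DESeq2 called 1 carrier, 1 brake and 5 FOXO-raised genes. Limma called 0 FOXO-raised genes and 2, 2 and 0 insulin-raised genes. On leaving out a library the calls ran from 0 to 2 for FOXO-raised and from 0 to 9 for insulin-raised genes. Of the latter 8 or 9 were tested, depending on the library left out.

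With a replicate block edgeR called 29 genes, 0 members, 0 FOXO-raised and 2 insulin-raised genes. Deviations of same-numbered libraries correlated at -0.0739, 0.183 and -0.126, and those of differently numbered libraries at -0.255 to 0.293. These ranges overlap, so the check cannot tell whether the numbers pair the libraries. Irs2 and Irs1 had the fewest counts of the members, down to 75 and 102 in a library, and the part of depth in their spread was not tested. The causes of these changes were not tested.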
